A study of Mus musculus with 4 samples.

Results

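Sinusoidal endothelial cells, called midlobular and periportal by the rule below, were examined in single-cell RNA sequencing of hepatic nonparenchymal cells. They were selected by sums of unique molecular identifiers (UMIs) per barcode, and their position in the tissue was not measured. A member carried at least 2 UMIs over the endothelial genes Kdr, Ptprb, Egfl7 and Cdh5 and at least 3 over the sinusoidal genes Stab2, Clec4g, Oit3 and Dnase1l3. It carried at most 1 over the pericentral genes Rspo3, Wnt2 and Wnt9b, at most 1 over the vascular genes Ednrb, Selp, Vwf and Cd34, and at most 1 over the leukocyte genes Cd3d, Cd3e, Cd79a, Clec4f and Csf3r. Of 25899 barcodes, 24561 had at least 200 genes and at most 20% mitochondrial UMIs, and 1585 of those were members. The members numbered 46 in TAA, 23 in TAA+C7.5, 4 in TAA+C30 and 1512 in Control.

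All 4 libraries came from livers of C57B6 wild-type animals that were 18 to 20 weeks old, and each group was 1 mouse and 1 droplet library. The TAA mouse was injected intraperitoneally with thioacetamide, a hepatotoxin that causes scarring of the liver, over 12 weeks. The same injections with celecoxib by gavage from week 5, at 7.5 or 30 mg/kg, made the TAA+C7.5 group and the TAA+C30 group. The Control mouse received normal saline. Celecoxib inhibits cyclooxygenase-2, the enzyme encoded by Ptgs2. Groups of 1 mouse allow no replicate check and no test was made, so every comparison is one between libraries, and a treatment, a mouse and a library cannot be told apart.

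Liver sinusoids are lined by fenestrated endothelial cells that lie without a continuous basement membrane and clear waste from blood through scavenger receptors such as stabilins and the mannose receptor. Along the sinusoid these cells differ with their distance from the portal inlet: cells near the central vein secrete Wnt ligands, and cells near the portal tract carry ephrin and Notch ligands. In fibrotic liver the sinusoid is known to lose fenestrae and to gain features of continuous capillaries, a change called capillarization.

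The libraries held 6915, 6117, 6284 and 6583 barcodes in TAA, TAA+C7.5, TAA+C30 and Control, with 17888247 to 48419305 UMIs. Pairs of libraries shared 9 to 14 barcode sequences, and none was a member in both libraries of a pair. Member cells held 181567 UMIs in TAA, 62314 in TAA+C7.5, 5673 in TAA+C30 and 4827578 in Control, with medians per cell of 1447.5, 2522, 1487 and 2054.5. Levels are CPM, the UMIs of a gene as a share of all member UMIs of the library on the usual CPM scale, and a log2 ratio was taken after adding 10 CPM to both sides. Ranges in parentheses are exact 95% intervals (Poisson for a level, conditional binomial for a ratio of CPM, Clopper-Pearson for a share) and cover counting error only.

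The genes that chose the members are given as a description. Summed, the sinusoidal genes stood at 4450 CPM in TAA, 6339 in TAA+C7.5, 5641 in TAA+C30 and 8649 in Control members, and the endothelial genes at 4147, 5873, 11987 and 9072 CPM in that order. Clec4g, a C-type lectin of sinusoidal endothelium, stood at 1724, 2503, 2468 and 2954 CPM. Dnase1l3, a secreted nuclease that degrades DNA in circulating microparticles, stood at 1553, 2359, 1058 and 3500 CPM. Stab2, the hyaluronan-clearing stabilin-2, stood at 688, 626, 1410 and 1239 CPM, and Kdr, the main VEGF receptor, at 1382, 2166, 3173 and 3134 CPM. These levels include leukocyte-bearing members, described further on, which held 40.7% of the TAA member UMIs. Without them, the sinusoidal genes summed to 6838, 7096, 5641 and 9059 CPM and the endothelial genes to 6262, 6468, 11987 and 9512 CPM. Clec4g then stood at 2722 CPM in TAA and 3098 in Control, and Kdr at 2025 and 3281 CPM. At the edge of the selection, 4, 0, 0 and 63 members had exactly 3 sinusoidal UMIs, and 5, 3, 1 and 63 barcodes missed membership at 2.

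Among genes outside the selection, other sinusoidal markers were present in every library. Maf, a transcription factor that specifies sinusoidal endothelium in mice, stood at 2357 CPM in TAA, 2520 in TAA+C7.5, 3525 in TAA+C30 and 3727 in Control members. Mrc1, the mannose receptor, stood at 975, 1508, 1763 and 2393 CPM, and Fcgr2b, the inhibitory Fc receptor that clears immune complexes, at 1751, 2006, 2644 and 2659 CPM. Bmp2, a ligand through which endothelium signals iron load to hepatocytes, stood at 1487, 2134, 2644 and 2129 CPM. Without leukocyte-bearing members, TAA and Control stood at 3614 and 3916 CPM for Maf and at 1394 and 2513 CPM for Mrc1. Fcgr2b then stood at 2685 and 2797 CPM, and Bmp2 at 2193 and 2233 CPM. The pan-endothelial genes Pecam1, at 534, 369, 881 and 638 CPM, and Tie1, at 143, 305, 529 and 247 CPM, were also detected in all 4 libraries. The TAA+C30 values were 5 UMIs of Pecam1 and 3 UMIs of Tie1, each in 2 of 4 members.

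Members made up 0.706% (0.518 to 0.941) of kept barcodes in TAA, 0.378% (0.240 to 0.567) in TAA+C7.5, 0.0647% (0.0176 to 0.166) in TAA+C30 and 26.1% (25 to 27.3) in Control. The Control share was 37.0 times that of TAA, 69.1 times that of TAA+C7.5 and 403 times that of TAA+C30. The ranges in parentheses cover counting error within 1 library per group and not differences between mice. The rule is a threshold on raw UMIs, so a deeper barcode can more easily both reach the sinusoidal genes and exceed a limit. After every barcode was thinned to 1000 UMIs, members were 95 of 6278 barcodes (1.51%) in TAA, 42 of 5402 (0.777%) in TAA+C7.5, 5 of 5704 (0.0877%) in TAA+C30 and 2077 of 5043 (41.2%) in Control. Thinning left out 234, 681, 474 and 745 shallower barcodes. All shares describe suspensions made by enzymatic digestion, lysis of red cells and a slow spin against hepatocytes, and recovery of endothelium from the tissue was not measured.

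The limit on vascular genes removed most sinusoidal-gene barcodes of the thioacetamide livers. Barcodes that passed the endothelial, sinusoidal and leukocyte conditions numbered 277 in TAA, 73 in TAA+C7.5, 13 in TAA+C30 and 2759 in Control. Of these, 231 (83.4%), 38 (52.1%), 9 (69.2%) and 142 (5.15%) carried at least 2 UMIs of Ednrb, Selp, Vwf and Cd34, genes of vessel and capillarized endothelium. In TAA all 90 barcodes with at least 2 pericentral UMIs also exceeded the vascular limit, so that 0 barcodes were pericentral by the complementary rule, against 12 in TAA+C7.5, 0 in TAA+C30 and 1121 in Control. Among members, 21 of 46 in TAA (45.7%), 11 of 23 in TAA+C7.5 (47.8%), 1 of 4 in TAA+C30 (25%) and 93 of 1512 in Control (6.15%) had the 1 vascular UMI that the rule allows. The 1 pericentral UMI allowed was carried by 4 (8.70%), 7 (30.4%), 1 (25%) and 508 (33.6%) members in that order. Without limits on pericentral and vascular genes the shares were 4.25%, 1.20%, 0.210% and 47.7%.

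**Figure D1:**
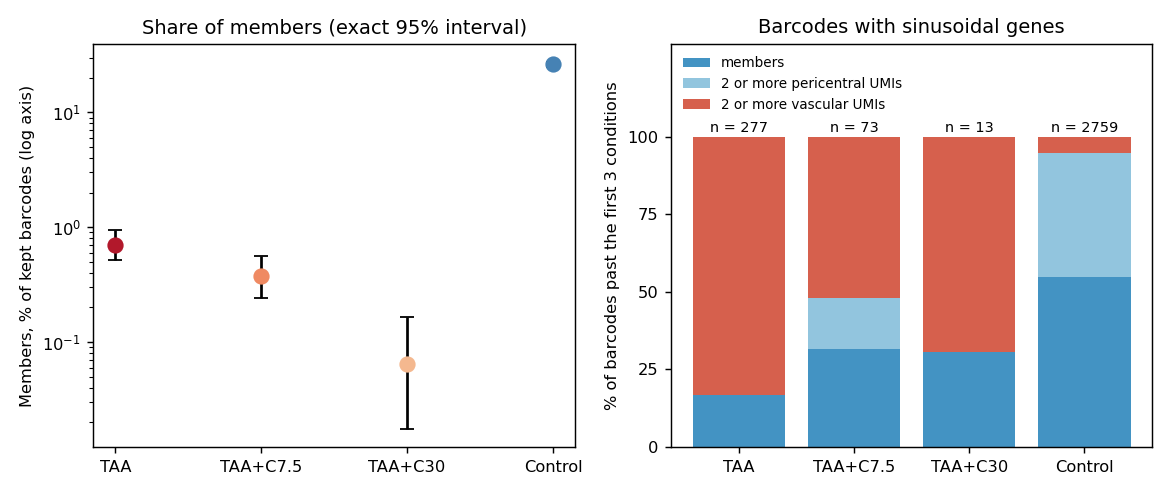
Left, the share of kept barcodes that were members (percent, log axis) with exact 95% intervals of counting error; the 3 thioacetamide libraries lie at 0.706%, 0.378% and 0.0647%, and Control lies at 26.1%. Right, barcodes that passed the endothelial, sinusoidal and leukocyte conditions, split by percent into members, those with 2 or more pericentral but at most 1 vascular UMI, and those with 2 or more vascular UMIs, which made up 83.4% in TAA and 5.15% in Control.

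RNA of the rule genes was also found in other cells, most of all in the Control library. In barcodes with at least 2 UMIs of Cd3d, Cd3e and Cd79a, taken as lymphocytes, the sinusoidal rule genes summed to 137 CPM in TAA, 11.8 in TAA+C7.5, 28.4 in TAA+C30 and 735.5 in Control. That is far below the members of each library, but 82 of 1348 Control lymphocytes passed the endothelial and sinusoidal conditions, against 17 of 2382 in TAA, 6 of 2901 in TAA+C7.5 and 2 of 1859 in TAA+C30. Members also held transcripts of other cells. Hepatocyte genes summed to 430 CPM in TAA, 1139 in TAA+C7.5, 0 in TAA+C30 and 1133 in Control members. Erythroid genes summed to 11280, 1894, 353 and 2145 CPM, and in TAA 1 member had 79.7% of its UMIs from haemoglobin genes. Scrublet, a doublet caller, marked 1, 3, 0 and 17 members, which were kept.

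In the Control library, the members could be set beside 1121 pericentral cells and 164 vascular cells. Against pericentral cells, 1993 genes with a mean of at least 100 CPM were compared, and members were at least 2-fold higher for 11 (0.552%) and at least 2-fold lower for 4 (0.201%). The members were shallower, with a median of 2054.5 UMIs per cell against 6258 in pericentral cells. Of the members, 508 (33.6%) carried 1 pericentral UMI, so the 2 groups are parts of a range set by a UMI limit. Of 14 periportal landmarks 6 were measured, of which 2, Msr1 and Ntn4, were at least 2-fold higher and 0 lower, with a median log2 ratio of 0.63 beside -0.05 over all measured genes. Of 15 pericentral landmarks 12 were measured, of which 0 were higher and 4 lower (median -0.60). Msr1, the class A macrophage scavenger receptor, stood at 402 CPM in members and 116 CPM in pericentral cells, a ratio of 3.21 to 3.78. Cd36, a fatty acid translocase and thrombospondin receptor, stood at 531 and 229 CPM (2.18 to 2.46). Ntn4, a netrin of basement membranes, stood at 492 and 215 CPM (2.15 to 2.45). The artery-side Notch ligand Dll4, under the minimum of 100 CPM like Efnb2, stood at 128 and 65.8 CPM (1.72 to 2.19), and the ephrin ligand Efnb2 at 122 and 54.7 CPM (1.96 to 2.54).

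The 4 genes that were at least 2-fold lower in members were Cdh13, Thbd, Kit and Ptgs1. Cdh13, which encodes T-cadherin, stood at 73.1 CPM in members and 243 CPM in pericentral cells, a log2 ratio of -1.61. Thbd, the anticoagulant thrombomodulin, stood at 124 and 316 CPM (-1.28). Kit, a receptor tyrosine kinase used as a pericentral sinusoidal landmark, stood at 275 and 624 CPM (-1.15). Ptgs1, which encodes cyclooxygenase-1, stood at 237 and 496 CPM (-1.03). The scavenger genes stood at closer levels: Mrc1 at 2393 and 2796 CPM, Fcgr2b at 2659 and 3026 CPM, Stab1 at 1215 and 1569 CPM, and Lyve1 at 398 and 355 CPM. Of the 11 higher genes, Cd74, H2-Ab1, H2-Aa and H2-Eb1 belong to MHC class II presentation. Without leukocyte-bearing barcodes, described further on, 5 (0.25%) of 2001 genes were at least 2-fold higher and 3 (0.15%) at least 2-fold lower. Spp1, at 769 and 228 CPM, took 48.3% of its Control member UMIs from 1 barcode.

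Against vascular cells of the same library, members were at least 2-fold higher for 8 (0.404%) and at least 2-fold lower for 31 (1.57%) of 1978 genes. Lyve1, the hyaluronan receptor shared by lymphatic and sinusoidal endothelium, stood at 398 CPM in members and 74.2 CPM in vascular cells, a ratio of 4.33 to 6.70. Ctsl, the lysosomal protease cathepsin L, stood at 1894 and 914 CPM (1.95 to 2.21). Fabp4, a fatty acid carrier of continuous endothelium, stood at 457 CPM in members and 2444 CPM in vascular cells, a log2 ratio of -2.39. Plvap, the diaphragm protein of fenestrae and caveolae, stood at 108 and 453 CPM (-1.97), and Jam2, a junction adhesion molecule, at 203 and 647 CPM (-1.62). Adgrg6 stood at 20.9 CPM in members and 263 CPM in vascular cells (-3.14). Gata4, a transcription factor needed for sinusoidal identity in mice, stood at 238 and 248 CPM, and F8, which encodes coagulation factor VIII, at 961 and 1002 CPM.

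**Figure D2:**
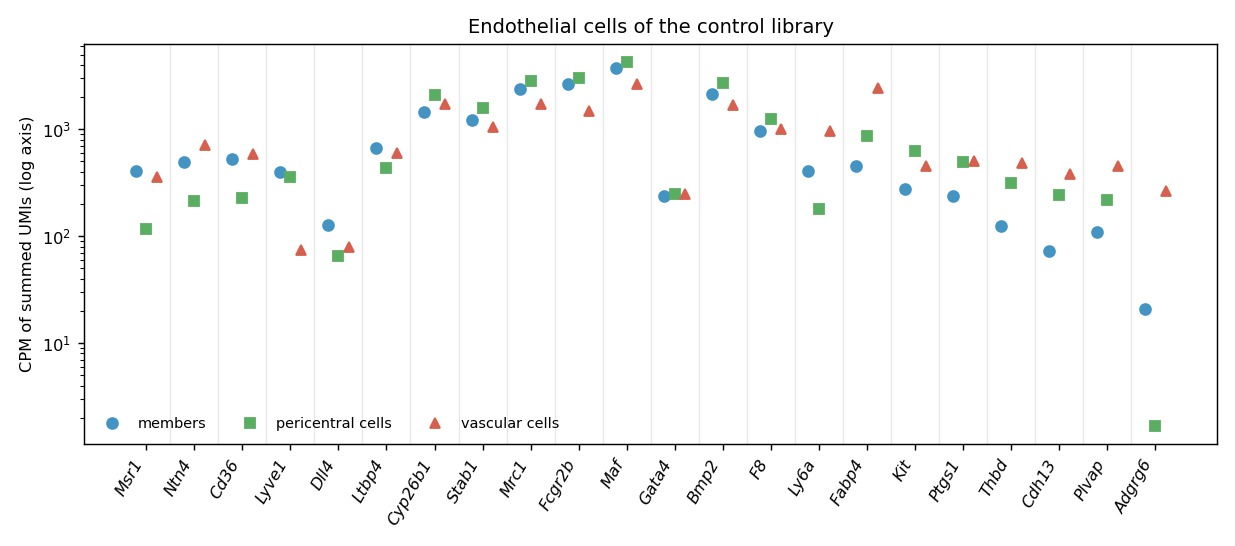
CPM of UMIs summed over cells (log axis) in 1512 members, 1121 pericentral cells and 164 vascular cells of the Control library, for genes outside the selection rule. Members lie above pericentral cells for Msr1 (402 against 116 CPM) and above vascular cells for Lyve1 (398 against 74.2 CPM), and below both for Kit, Thbd, Cdh13 and Plvap.

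The Control members also differed among themselves. Of them, 1185 had at least 1000 UMIs and were thinned to that depth, then ordered by the summed UMIs of 5 periportal landmarks, Efnb2, Dll4, Msr1, Ltbp4 and Ntn4. There were 384 members (32.4%) with 0 landmark UMIs, 314 (26.5%) with 1 and 487 (41.1%) with at least 2. These are ranges of a sparse sum and not cell types, and the 314 members with 1 UMI lie beside both limits. Median UMIs before thinning were 2213.5, 2699.5 and 3569, and median mitochondrial shares 7.42%, 6.47% and 5.73%. Pan-leukocyte genes summed to 703, 541 and 429 CPM and hepatocyte genes to 1628, 866 and 643 CPM. The part of depth and of other cells' RNA in the differences below was not tested.

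Between members with at least 2 landmark UMIs and those with 0, 112 of 1911 genes (5.86%) were at least 1.5-fold higher and 73 (3.82%) at least 1.5-fold lower. Of the landmarks not used for the ordering, Efnb1, a B-type ephrin ligand, stood at 117 CPM with 0, 146 with 1 and 324 with at least 2 landmark UMIs. Itga9, an integrin that binds tenascin and osteopontin, stood at 276, 369 and 544 CPM. Cd36 stood at 242, 398 and 686 CPM, Insr, the insulin receptor, at 85.9, 150 and 253 CPM, and the Notch target Hes1 at 315, 427 and 606 CPM. Lyve1 stood at 258, 401 and 400 CPM, and Ly6a, the GPI-anchored antigen Sca-1, at 232, 331 and 522 CPM. Each of these 7 genes stood higher with at least 2 than with 0 landmark UMIs.

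Several pericentral landmarks ran the other way. Kit stood at 396, 299 and 220 CPM with 0, 1 and at least 2 landmark UMIs. Fabp4 stood at 794, 576 and 405 CPM, and Olfm1 at 279, 159 and 142 CPM. Ccnd1, the G1 cyclin D1, stood at 833, 717 and 534 CPM. Gatm, an enzyme of creatine synthesis, stood at 1544, 1366 and 1115 CPM, and Ptgs1 at 318, 306 and 218 CPM. Outside the landmarks, Gas6, the ligand of TAM receptors, stood at 654, 545 and 324 CPM, and Lgals1, which encodes galectin-1, at 555, 417 and 224 CPM. Not every landmark followed: Cyp26b1, a retinoic acid hydroxylase listed as periportal, stood at 1401, 1535 and 1544 CPM, and Plxnc1, listed as pericentral, at 1135, 1159 and 1086 CPM. Wnt2, limited to 1 UMI by the rule, stood at 195, 156 and 78.0 CPM, given only as a description.

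The MHC class II gene H2-Aa stood at 253, 76.4 and 41.1 CPM, and together with Spp1 and Clu it headed the genes lower with more landmark UMIs. The directions of Cd36, Efnb1, Itga9, Hes1, Kit, Fabp4, Ccnd1, Gatm, Ptgs1 and Olfm1 were unchanged in 3 subsets of the same Control members. The subsets were those without leukocyte-bearing barcodes, those with 0 pericentral UMIs and those with at least 3000 UMIs before thinning. They hold only cells of the full set, so their directions are not independent of it. Plxnc1 changed sign, at log2 -0.06 over all members and 0.27 in the deepest set.

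**Figure D3:**
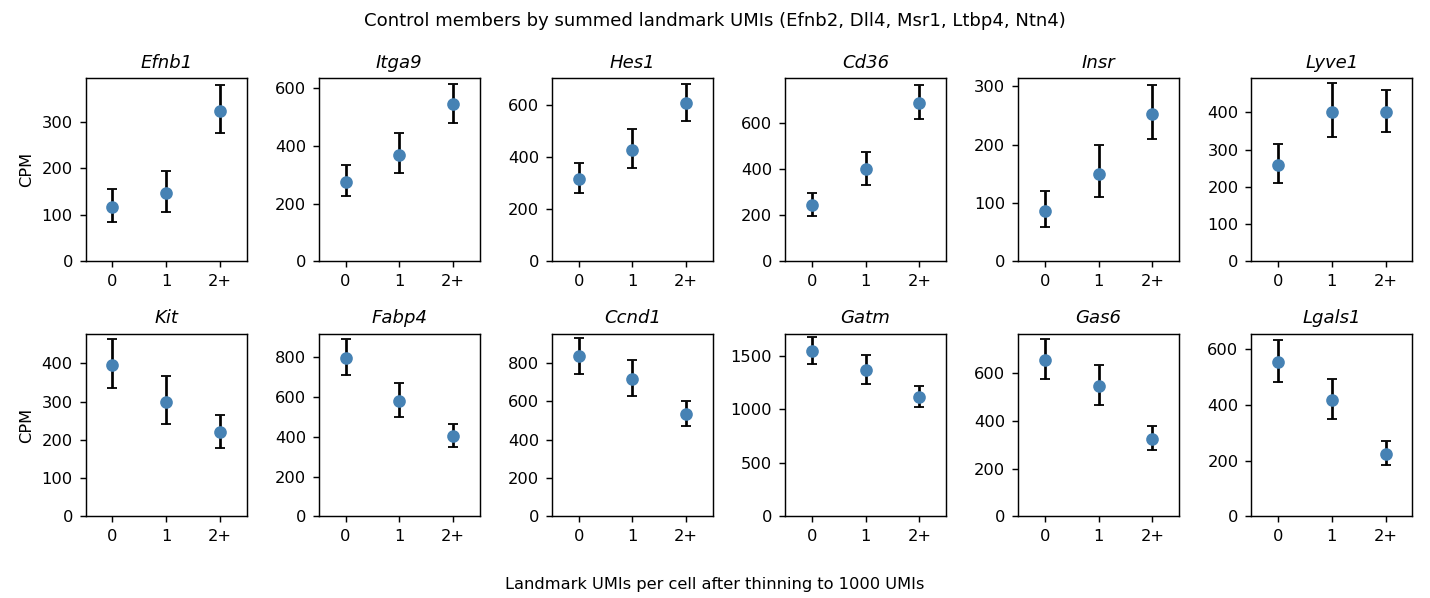
CPM with exact 95% intervals of counting error in Control members with 0, 1 and 2 or more summed UMIs of Efnb2, Dll4, Msr1, Ltbp4 and Ntn4, after thinning to 1000 UMIs (384, 314 and 487 cells). The upper row holds genes that were higher with more landmark UMIs (Cd36 at 242, 398 and 686 CPM), and the lower row holds genes that were lower (Kit at 396, 299 and 220 CPM).

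Thioacetamide against saline asks how these sinusoidal cells differ in the fibrotic liver. Over all members, TAA was at least 2-fold higher for 188 (9.97%) and at least 2-fold lower for 166 (8.8%) of 1886 genes. With scaling by the median of ratios in place of total UMIs these counts were 235 and 110; the median log2 ratio over genes of at least 50 CPM was -0.12 by total UMIs. The 10 genes with the highest ratio were led by myeloid genes: C1qb and C1qc, subunits of complement C1q, at log2 ratios of 4.62 and 4.47, Cd5l, a secreted Kupffer cell protein, at 4.64, the inflammatory cytokine gene Il1b at 4.35 and the beta-glucan receptor gene Clec7a at 4.68. Ccl5, a T cell and monocyte chemokine, had the highest log2 ratio of 5.93, with 337 UMIs in TAA members of which 99.7% came from 1 barcode.

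A few leukocyte-bearing barcodes carried these genes. Members with at least 3 UMIs over Ptprc, Coro1a, Lyz2 and Cd52 numbered 7 in TAA, 3 in TAA+C7.5, 0 in TAA+C30 and 39 in Control, and held 40.7%, 15.6%, 0% and 6.68% of the member UMIs. These members were chosen by leukocyte genes, so a lower pan-leukocyte sum without them follows in part from the choice. Without them, pan-leukocyte genes summed to 325 CPM in TAA, 342 in TAA+C7.5 and 368 in Control, against 2875, 851 and 716 CPM with them. Kupffer cell genes summed to 251 CPM in TAA and 387 in Control without them, against 2710 and 386 CPM with them. Without them, monocyte and macrophage genes summed to 232, 76.1, 176 and 170 CPM in TAA, TAA+C7.5, TAA+C30 and Control, neutrophil genes to 102.2, 114, 881 and 72.8 CPM, and B cell genes to 74.3, 285, 176 and 143 CPM. T and NK cell genes were all at 0 in the 3 thioacetamide libraries and summed to 17.3 CPM in Control. Stellate cell and fibroblast genes summed to 92.9, 76.1, 0 and 87.0 CPM, and cholangiocyte genes to 83.6, 2587, 176 and 922 CPM. Of 4 hepatocyte genes measured, 3 were at least 1.5-fold lower in TAA than in Control, and all 4 erythroid genes measured were higher, beside 16.9% lower and 16% higher among all genes. The TAA to Control log2 ratios then were -0.23 for Ccl5, -1.37 for Cd5l, -1.15 for Il1b, 1.51 for C1qb and 0.99 for C1qc. Over all members, 645 of 3742 genes with a mean of at least 50 CPM (17.2%) were at least 1.5-fold higher in TAA and 859 (23%) lower. The 7 MHC class II genes measured this way were all higher and the list summed to 9963 CPM in TAA and 1212 CPM in Control, against 334 and 225 CPM without these barcodes. The comparisons that follow leave them out, which keeps 39 TAA, 20 TAA+C7.5, 4 TAA+C30 and 1473 Control members with medians of 1168, 2361.5, 1487 and 1968 UMIs. The median mitochondrial share of all members also differed between libraries, at 2.73% in TAA, 3.41% in TAA+C7.5, 5.91% in TAA+C30 and 7.56% in Control, where 193, 24, 47 and 678 barcodes were left out for a mitochondrial share over 20%. Its part in the comparisons was not tested.

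**Figure D4:**
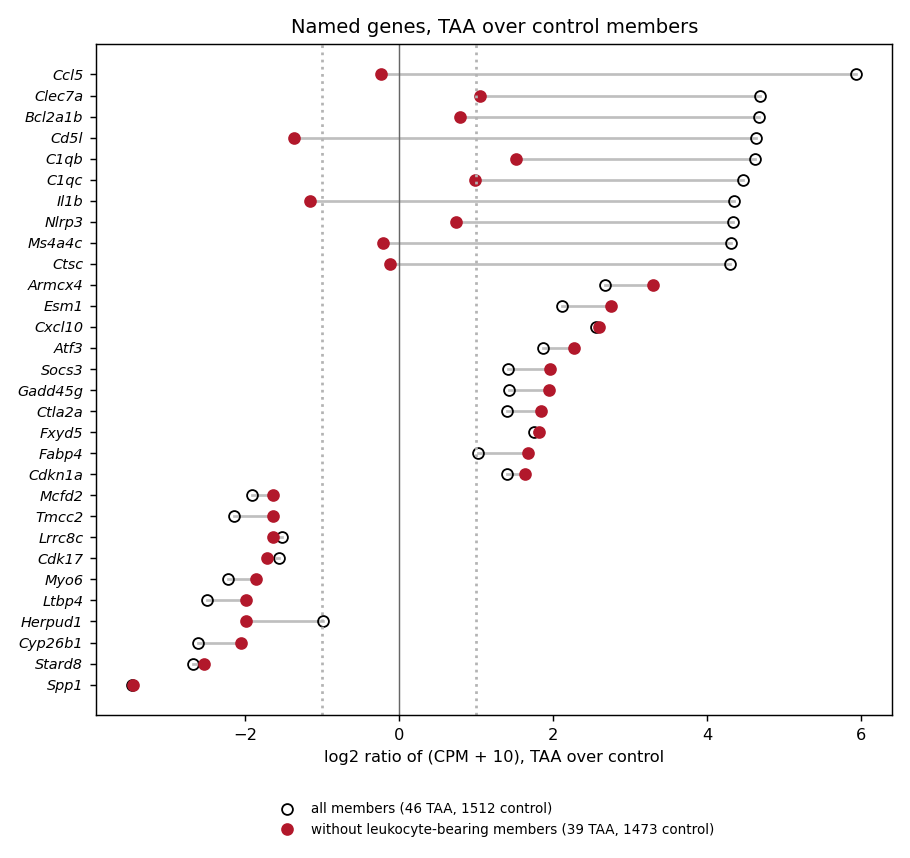
Log2 ratio of TAA over Control members (10 CPM added) for the named genes, over all members (open circles, 46 and 1512 cells) and without leukocyte-bearing members (filled circles, 39 and 1473 cells); dotted lines mark 2-fold. The 10 genes at the top lie between 4.30 and 5.93 over all members and between -1.37 and 1.51 without those barcodes, while the lower genes at the bottom, Cyp26b1 and Ltbp4 among them, lie below 0 in both.

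Without leukocyte-bearing members, 1911 genes were compared, of which TAA was at least 2-fold higher for 111 (5.81%) and at least 2-fold lower for 78 (4.08%). Among the lower genes were Cyp26b1 and Ltbp4, both listed as periportal landmarks, although Cyp26b1 differed little with landmark UMIs among Control members and was lower in members than in pericentral cells, at 1459 and 2068 CPM. Cyp26b1 (chr6:84571414-84593908, mm10) stood at 362 CPM in TAA and 1535 CPM in Control members, with 742 CPM in TAA+C7.5 and 0 UMIs in TAA+C30. The TAA to Control ratio was 0.168 to 0.323, a log2 ratio of -2.05. Ltbp4 (chr7:27305136-27337692), a matrix protein that binds latent TGF-beta, stood at 167 CPM in TAA and 695 CPM in Control, with 133 CPM in TAA+C7.5 and 0 UMIs in TAA+C30. Its ratio was 0.142 to 0.381, a log2 ratio of -1.99. Both genes were lower in TAA and in TAA+C7.5 than in Control, and both were lower in TAA under every alternative computed, from -2.74 to -1.32 for Cyp26b1 and from -2.58 to -1.49 for Ltbp4.

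Cyp26b1 UMIs were found in 18 of 39 TAA, 13 of 20 TAA+C7.5 and 1136 of 1473 Control members. After thinning to 1000 UMIs, 7 of 24 TAA members (29.2%), 6 of 16 TAA+C7.5 members (37.5%) and 727 of 1146 Control members (63.4%) had a Cyp26b1 UMI, against 0.462%, 0.0727% and 5.31% of lymphocytes of those libraries thinned alike. Ltbp4 was found in 1 of 24 (4.17%), 1 of 16 (6.25%) and 469 of 1146 (40.9%) members, against 0.0840%, 0% and 1.5% of lymphocytes. The median depths before thinning were 1168, 2361.5 and 1968 UMIs in members and 3980.5, 2047 and 3634.5 in lymphocytes. Stard8 stood at 46.5 CPM in TAA and 317 CPM in Control (-2.53), and Myo6, an unconventional myosin of endocytosis, at 55.7 and 228 CPM (-1.85). Spp1 at -3.46 rested on a Control barcode that gave 55.8% of its UMIs.

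Fabp4 (chr3:10204088-10208576) stood higher. Its level was 1542 CPM in TAA and 476 CPM in Control, with 1294 CPM in TAA+C7.5 and 881 CPM (5 UMIs) in TAA+C30. The TAA to Control ratio was 2.75 to 3.79. After thinning, 20 of 24 TAA members (83.3%), 9 of 16 TAA+C7.5 members (56.2%) and 367 of 1146 Control members (32.0%) had a Fabp4 UMI, against 0.588%, 0.254% and 2.77% of lymphocytes. Armcx4 stood at 399 CPM in TAA and 31.7 CPM in Control (8.73 to 17.8), and was found in 16 of 39 TAA and 119 of 1473 Control members. Ctla2a, a cathepsin inhibitor, stood at 502 and 133 CPM (2.81 to 5.00), and Fxyd5, a regulator of the sodium pump, at 334 and 87.5 CPM (2.64 to 5.39). Fxyd5 stood higher in barcodes that were not members, at 634 CPM in TAA and 313 CPM in Control. After thinning, 6 of 24 TAA members (25%) and 26.1% of TAA lymphocytes had a Fxyd5 UMI. The part of other cells' RNA in its ratio was not tested.

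Other higher genes rested on few cells. Cxcl10, an interferon-induced chemokine, stood at 1524 CPM in TAA and 245 CPM in Control (5.25 to 7.34), but its 164 TAA UMIs were in 9 of 39 members, 40.9% of them in 1. Esm1, a tip cell proteoglycan, stood at 297 and 35.5 CPM, with 75% of the TAA UMIs in 1 barcode. Atf3, a stress-induced transcription factor, stood at 362 and 67.5 CPM in 6 and 99 members, and Socs3, the feedback inhibitor of cytokine signalling, at 780 and 192 CPM in 13 and 301 members.

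Gene lists were described by the number of measured genes (mean of at least 50 CPM) that were at least 1.5-fold different. Among all 3749 genes measured this way, TAA was higher for 601 (16%) and lower for 633 (16.9%), with a median log2 ratio of -0.02. The list of VEGF and angiopoietin receptors had 0 higher and 6 lower of 11, with a median of -0.74. Nrp1, the VEGF co-receptor neuropilin-1, stood at 725 CPM in TAA and 1722 CPM in Control (0.332 to 0.526), with 1122 CPM in TAA+C7.5 and 529 CPM (3 UMIs) in TAA+C30. Flt1, VEGF receptor 1, stood at 520 and 974 CPM, Tek, the angiopoietin receptor Tie2, at 195 and 412 CPM, and Robo4, an endothelial guidance receptor, at 139 and 350 CPM. The periportal landmarks had 1 higher and 4 lower of 9 (median -0.56), against -0.61 over all members. The median turned to 0.29 over all cells without the limits on pericentral and vascular genes, and was 0.0078 over members with neither leukocyte-bearing barcodes nor a vascular UMI. Ntn4 stood at 325 CPM in TAA and 521 CPM in Control, and Sox17 at 149 and 82.1 CPM. The pericentral landmarks had 2 higher and 2 lower of 12 (median -0.16).

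Sinusoidal identity genes had 1 higher and 3 lower of 17, with a median of -0.06. Ehd3, an endocytic membrane-remodelling ATPase of sinusoidal endothelium, stood at 2313 CPM in TAA and 4635 CPM in Control (0.439 to 0.566), and Mrc1 at 1394 and 2513 CPM (0.469 to 0.651). Lamp2, a lysosomal membrane protein, stood at 753 and 1221 CPM. Cd36 was the higher gene of this list, at 1273 and 550 CPM (1.93 to 2.75). Other members lay closer together: Fcgr2b at 2685 and 2797 CPM, Stab1 at 910 and 1276 CPM and Lyve1 at 595 and 417 CPM. Endothelial transcription factors had 0 higher and 4 lower of 15 (median -0.19), among them the shear-stress factors Klf2, at 418 and 796 CPM, and Klf4, at 158 and 302 CPM. Maf stood at 3614 and 3916 CPM and Gata4 at 158 and 251 CPM.

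Capillarization genes had 4 higher and 2 lower of 15 (median 0.44, against -0.06 over all members). The vascular limit of the rule had removed 83.4% of sinusoidal-gene barcodes in TAA and 5.15% in Control. This list was therefore compared only among cells low in vascular genes, and the part of that limit was not tested. Ly6a stood at 892 CPM in TAA and 409 CPM in Control, and Sparc, a matricellular collagen-binding protein, at 2165 and 1342 CPM, while Emcn, the sialomucin endomucin, stood at 92.9 and 289 CPM. Plvap, at 158 and 114 CPM, and Pecam1, at 743 and 667 CPM, differed by less than 1.5-fold. Lipid and iron genes had 5 higher and 2 lower of 13 (median 0.30), with the carrier Fabp5 at 511 and 240 CPM and the iron exporter gene Slc40a1 at 139 and 311 CPM. The metallothioneins Mt1, at 1598 and 575 CPM, and Mt2, at 446 and 140 CPM, were the 2 higher genes of the oxidative stress list, which had 3 lower of 10 (median 0.17).

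Interferon response genes had 9 higher and 2 lower of 16, with a median of 0.61. Isg15, a ubiquitin-like protein, stood at 214 CPM in TAA and 25.7 CPM in Control (5.06 to 13.1), and Ifitm3, an antiviral membrane protein, at 2490 and 991 CPM (2.21 to 2.84). Gbp4, a guanylate-binding protein, was among the lower genes, at 27.9 CPM in TAA and 115 CPM in Control. NF-kB and inflammatory genes had 6 higher and 0 lower of 13 (median 0.53), with Ccl2, the monocyte chemokine, at 111 and 12.0 CPM, 11 of its 12 TAA UMIs being in 1 barcode. Adhesion and recruitment genes had 3 higher and 1 lower of 9 (median 0.51), with Icam1 at 585 and 198 CPM and Vcam1 at 381 and 290 CPM. In TAA, 1 barcode held 45 of the 63 Icam1 UMIs, which were in 6 of 39 members against 343 of 1473 in Control, and 1 barcode held 24 of the 41 Vcam1 UMIs. MHC class I genes had 0 higher and 2 lower of 10 (median -0.39), with H2-K1, a classical class I heavy chain, at 864 and 2196 CPM (0.317 to 0.483).

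Immediate early and dissociation genes had 11 higher and 1 lower of 19, with a median of 0.73, including Egr1 at 1236 CPM in TAA and 397 CPM in Control and the heat shock gene Hspa1a at 715 and 295 CPM. In TAA, 1 barcode held 60 of the 133 Egr1 UMIs and 1 held 46 of the 77 Hspa1a UMIs. This list moved beside the interferon, NF-kB and adhesion lists, and the part of tissue digestion in them was not tested. Smaller lists gave 2 higher and 0 lower of 5 angiocrine factors (Hgf at 269 and 103 CPM, 18 of 29 TAA UMIs in 1 barcode), 1 and 2 of 5 Notch genes (Hes1 at 1217 and 653 CPM, Notch1 at 288 and 468 CPM), 1 and 2 of 8 matrix genes (Timp3 at 669 and 1253 CPM), 0 and 2 of 9 TGF-beta and BMP genes, 0 and 1 of 6 coagulation genes, 3 and 0 of 6 cell cycle genes, and 0 and 0 of 5 vascular tone genes. Ptgs1 stood at 204 CPM in TAA and 247 CPM in Control, Nos3, the endothelial nitric oxide synthase gene, at 65.0 and 73.0 CPM, and F8 at 855 and 1005 CPM. Ptgs2, which encodes the enzyme that celecoxib inhibits, had 0 UMIs in TAA, TAA+C7.5 and TAA+C30 and 10 in Control (2.22 CPM), and with leukocyte-bearing members 10, 0, 0 and 43 UMIs. For a count of 0, 3 UMIs were taken as the limit, which is 27.9 CPM in TAA, 57.1 in TAA+C7.5 and 529 in TAA+C30.

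**Figure D5:**
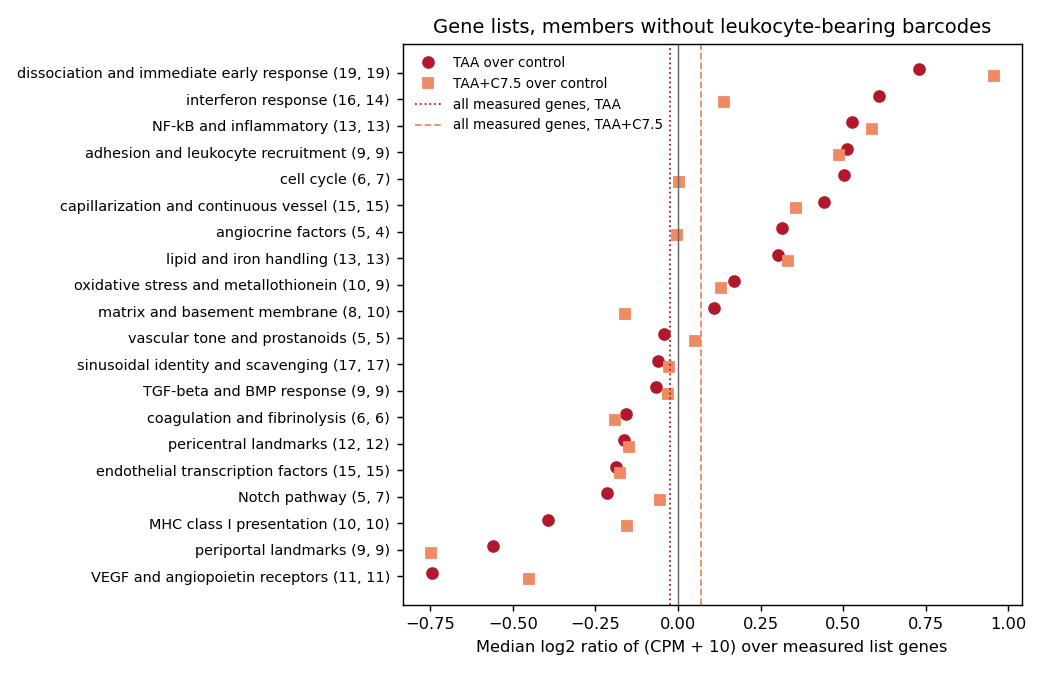
Median log2 ratio over the measured genes of each list (numbers measured in the comparison of TAA and of TAA+C7.5 in brackets), for TAA over Control and TAA+C7.5 over Control members without leukocyte-bearing barcodes; vertical lines mark the medians over all measured genes. Both comparisons use the Control library, and among the lists drawn immediate early genes lie highest at 0.73 and 0.96, while periportal landmarks lie at -0.56 and -0.75. The median of -0.56 turned to 0.29 without pericentral and vascular limits.

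Within the TAA library, members could be set only beside 243 vascular cells, which were deeper, at a median of 11757 UMIs against 1447.5 in members. Over all members, 100 (5.29%) of 1889 genes were at least 2-fold higher in members and 99 (5.24%) at least 2-fold lower. Without leukocyte-bearing barcodes on either side, which left 39 members and 222 vascular cells, 16 (0.838%) of 1910 genes were higher and 51 (2.67%) lower. Heat shock genes led the higher ones, Hspa1b at 910 CPM in members and 251 CPM in vascular cells and Hspa1a at 715 and 247 CPM, with 46 of the 77 Hspa1a UMIs of TAA members in 1 barcode. Lower in members were Thbd, at 121 and 380 CPM, Vcam1, at 381 and 921 CPM, Klf4, at 158 and 446 CPM, and Cyp26b1, at 362 and 776 CPM. Fabp4, at 1542 and 1172 CPM, and Plvap, at 158 and 200 CPM, were closer in TAA than in Control, where without leukocyte-bearing barcodes members stood at 476 and 114 CPM and vascular cells at 2611 and 487 CPM, a difference between libraries that was not tested. Lyve1 likewise stood at 595 CPM in TAA members and 603 CPM in TAA vascular cells.

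Celecoxib at 7.5 mg/kg was compared with thioacetamide alone over 23 and 46 members. TAA+C7.5 was at least 2-fold higher for 198 (10.5%) and at least 2-fold lower for 153 (8.12%) of 1885 genes, and with scaling by the median of ratios these counts were 146 and 187; the median log2 ratio over genes of at least 50 CPM was 0.16 by total UMIs. The lowest ratios over all members belonged to leukocyte genes carried by the 7 TAA barcodes, such as Cd5l, with 0 UMIs in TAA+C7.5 and 125 in TAA, and Rgs1, with 0 and 188. Among the highest, Clu and Spp1 had 95.4% and 98.8% of their TAA+C7.5 UMIs in 1 barcode, Ccl4 had 98.8% and Klk1 100%. Without leukocyte-bearing members, 20 against 39, TAA+C7.5 was higher for 166 (8.8%) and lower for 120 (6.36%) of 1886 genes.

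Lyve1 (chr7:110850607-110863239) stood at 1313 CPM in TAA+C7.5 and 595 CPM in TAA (1.55 to 3.15), with 176 CPM (1 UMI) in TAA+C30 and 417 CPM in Control. After thinning, 12 of 16 TAA+C7.5 members (75%), 12 of 24 TAA members (50%) and 267 of 1146 Control members (23.3%) had a Lyve1 UMI, against 0.145%, 0.168% and 1.27% of lymphocytes. Stab1, stabilin-1, stood at 1807 CPM in TAA+C7.5 and 910 CPM in TAA (1.48 to 2.66), and the lysosomal protease gene Ctsd at 1122 and 511 CPM (1.5 to 3.23). Mrc1, at 1750 and 1394 CPM, and Fcgr2b, at 2264 and 2685 CPM, differed by less than 1.5-fold. Klf2 stood at 856 and 418 CPM (1.32 to 3.17), beside 1197 and 696 CPM in barcodes that were not members. After thinning, 7 of 16 TAA+C7.5 and 9 of 24 TAA members (37.5%) had a Klf2 UMI, against 62.4% and 58.7% of lymphocytes. H2-K1 stood at 2055 and 864 CPM (1.79 to 3.17) and Cyp26b1 at 742 and 362 CPM (1.28 to 3.28). Gja1, the gap junction gene of connexin 43, stood at 666 and 288 CPM (1.38 to 3.88), with 40% of its TAA+C7.5 UMIs in 1 barcode.

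Lower in TAA+C7.5 was Ldha, lactate dehydrogenase A, at 57.1 CPM against 390 CPM in TAA (0.0290 to 0.458), found in 3 of 20 and 24 of 39 members. Cxcl10 stood at 323 and 1524 CPM (0.121 to 0.350), with 40.9% of its TAA UMIs in 1 barcode. It was found in 5 of 20 and 9 of 39 members. After thinning the counts were 4 of 16 (25%) and 5 of 24 (20.8%). Ifitm3 stood at 1199 and 2490 CPM (0.360 to 0.635), and Ifi203, an interferon-inducible gene, at 190 and 511 CPM (0.169 to 0.738). Fxyd5 stood at 114 and 334 CPM (0.118 to 0.818), beside 558 and 634 CPM in barcodes that were not members. The TAA+C7.5 members gave 3 to 63 UMIs for each of these genes. Both comparisons of TAA with another group use the TAA library, so a value particular to it enters both.

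Among 3815 genes measured for the lists, TAA+C7.5 was at least 1.5-fold higher for 1015 (26.6%) and lower for 795 (20.8%), with a median of 0.04. Interferon genes had 1 higher and 7 lower of 16 (median -0.37), and cell cycle genes 0 higher and 5 lower of 7 (median -0.96). Over all members, cell cycle genes had 2 higher and 3 lower of 6 (median -0.38), and as a mean over those cells 5 higher and 4 lower of 10 (median 0.43), so the direction of their median turned. Sinusoidal identity genes had 4 higher and 2 lower of 17 (median 0.07), VEGF and angiopoietin receptors 2 and 0 of 11 (0.33), endothelial transcription factors 4 and 1 of 14 (-0.07, against 0.33 over all members), and immediate early genes 6 and 0 of 19 (0.43). Periportal landmarks had 1 higher and 3 lower of 9 (-0.47), with Msr1 at 247 and 585 CPM, and pericentral landmarks 3 and 4 of 12 (-0.22), with Kit at 514 and 242 CPM. Capillarization genes had 2 higher and 5 lower of 15 (-0.27, against 0.07 over all members). The vascular limit had removed 52.1% of sinusoidal-gene barcodes in TAA+C7.5 and 83.4% in TAA. Adhesion genes had 1 higher and 3 lower of 9 (-0.16), and NF-kB genes 4 and 3 of 12 (0.12, against -1.11 over all members). The 4 higher of 17 sinusoidal identity genes are a smaller share than the 26.6% among all genes.

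Against Control, a library that the comparison of TAA with Control also uses, TAA+C7.5 members were at least 2-fold higher for 150 (7.66%) and lower for 90 (4.6%) of 1958 genes over all members. Without leukocyte-bearing members they were higher for 162 (8.19%) and lower for 95 (4.8%) of 1979 genes. Lyve1, at 1313 and 417 CPM (2.44 to 4.0), Fabp4, at 1294 and 476 CPM (2.10 to 3.46), and Cd36, at 1237 and 550 CPM (1.73 to 2.88), stood higher in TAA+C7.5. Ltbp4 stood at 133 CPM in TAA+C7.5 and 695 CPM in Control (0.0770 to 0.395), and Efnb1 at 57.1 and 234 CPM (0.0502 to 0.714). These TAA+C7.5 values rested on 7 UMIs of Ltbp4 in 3 members and 3 UMIs of Efnb1 in 2 members. For Efnb1 that equals the 3 UMIs taken as the limit for a count of 0. Of 3893 genes measured for the lists, 905 (23.2%) were at least 1.5-fold higher and 713 (18.3%) lower, with a median of 0.07. Periportal landmarks had 0 higher and 7 lower of 9 (median -0.75), and immediate early genes 15 and 0 of 19 (0.96), with Egr1 at 1674 and 397 CPM, 39 of its 88 TAA+C7.5 UMIs being in 1 barcode. NF-kB genes had 7 higher and 1 lower of 13 (0.59), and VEGF and angiopoietin receptors 0 and 3 of 11 (-0.45).

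The 4 TAA+C30 members allowed no comparison. They carried 27 UMIs of Ptprb, the endothelial receptor phosphatase, 21 of Ehd3, 20 of Maf, 15 each of Fcgr2b and Bmp2, 11 of Stab1 and 10 of Mrc1. They had 0 UMIs of Cyp26b1, Ltbp4, Efnb2, Itga9, Isg15, Egr1 and H2-Aa, which at 529 CPM for 3 UMIs says little about their levels. Kit, at 8 UMIs in 3 members, and Ptgs1, at 5 UMIs in 3 members, were detected.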

How the data were processed

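Nonparenchymal cells were isolated with a liver dissociation kit, red cell lysis and low-speed centrifugation and sequenced as droplet libraries with 10x 3' v2 chemistry, per the labels' protocols. The deposited values are raw UMI counts per gene and barcode; Cell Ranger 3.1.0 and the mm10 genome are named in the submitters' processing notes, and how cells were called is not given in the sources used here. The files hold no cell annotation. Barcodes with under 200 genes or over 20% mitochondrial UMIs were left out, and doublets were called with Scrublet (Scanpy 1.11.5, expected share 5%) but kept. Members were chosen by the UMI sums given above; UMIs were summed over cells, scaled to CPM, and compared as log2 ratios after adding 10 CPM (Python 3.11.15, NumPy 2.4.6, SciPy 1.17.1, pandas 2.3.3, matplotlib 3.10.9). Comparisons needed at least 20 members per library, which TAA+C30 did not reach. Genes with a mean of at least 100 CPM counted as measured for the 2-fold calls, and 50 CPM for the 1.5-fold counts of 31 gene lists, 21 of programmes and 10 of other cells. The genes named were the top 10 and bottom 10 by ratio among genes that had at least 30 UMIs in the higher library. Up to 3 list genes per direction and a set of key genes were named as well. The 20 rule genes and mitochondrial, ribosomal, haemoglobin, immunoglobulin, clone-named and hepatocyte genes were not eligible. Neither were Xist, the Y-linked genes Ddx3y, Uty, Kdm5d and Eif2s3y, or genes whose member CPM was under 50% of that of other barcodes. Other X-linked genes stayed eligible. The rule was applied again without leukocyte-bearing members. Other genes in the text were picked after their values were seen. Members and lists were chosen with earlier results of these data known. Gene coordinates are from GENCODE on mm10. The ratios, calls and intervals were tested on simulated Poisson counts per library, which held no cells and so no spread between cells. No values of samples outside this series were used.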

Additional observations from a re-analysis of the deposited data

How the results depend on the processing

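With 1 library per group and 4 to 46 members in the thioacetamide libraries, all values compare libraries. Counting intervals treat each UMI as independent and cover neither differences between mice nor those between cells. No paired analysis was possible because each group has 1 library. Depth limits the thioacetamide members: a count of 0 allows up to 0.0461% of kept barcodes in TAA, and 529 CPM in TAA+C30 members. The alternatives with 0 vascular UMIs, the subsets of Control members for the landmark ordering and the neighbouring cells without leukocyte-bearing barcodes were chosen after seeing the data. With at least 1000 UMIs per barcode, or with 0 vascular UMIs and no leukocyte-bearing members, TAA+C7.5 kept under 20 members and no comparison was made.

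Of 36 alternative values of the member shares, 23 lay within the counting interval. The TAA share was 4.25% without pericentral and vascular limits, 0.494% with at least 1000 UMIs, 0.322% with 0 vascular UMIs and no leukocyte-bearing members, and 1.51% after thinning. The TAA+C7.5 share was 1.20%, 0.164% and 0.777% without those limits, with 0 vascular UMIs and after thinning, and that of TAA+C30 was 0.210% without limits. The Control share was 23.8% with a sinusoidal sum of at least 5, 47.7% without limits, 23.5% with at least 1000 UMIs, 23.9% with 0 vascular UMIs and 41.2% after thinning.

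Of 82 counts of genes past 2-fold, 57 lay within 1.5 times the count given in the report. TAA against Control gave 70 higher and 23 lower without limits, 111 and 78 without leukocyte-bearing members, 454 and 473 at a mean of 30 CPM, and 813 and 1237 with no minimum beyond 1 UMI. The lower count was 98 with 50 CPM added and 110 with median-of-ratios scaling. TAA+C7.5 against TAA gave 19 higher and 23 lower without limits, 868 and 638 at 30 CPM, 2486 and 2214 with 1 UMI, and 105 higher with 50 CPM added. TAA+C7.5 against Control gave 51 and 19, 92 and 42 with 50 CPM added, 640 and 497 at 30 CPM, and 1549 and 1811 with 1 UMI. Without leukocyte-bearing barcodes, members against neighbours gave 5 higher in Control against pericentral cells and 16 higher and 51 lower in TAA against vascular cells. The landmark ordering gave 170 higher genes in members with 0 pericentral UMIs and 135 lower genes in those with at least 3000 UMIs. Fewer cells, fewer genes or a different minimum enter these counts by construction, and other causes were not tested.

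Set against the values over all members, 58 of 790 alternative list medians changed sign, 55 of them from a median of less than 1.5-fold. The other 3 were periportal landmarks in TAA against Control at 0.29 without limits and 0.0078 with 0 vascular UMIs and no leukocyte-bearing members, and NF-kB genes in TAA+C7.5 against TAA at 0.12 without leukocyte-bearing members. The medians of under 1.5-fold that changed sign included, in TAA against Control, capillarization genes (-0.06 over all members and 0.44 without leukocyte-bearing members), angiocrine factors (-0.24 and 0.32), matrix genes (-0.30 and 0.11), and, as a mean over cells, Notch genes (-0.48 and 0.51) and TGF-beta and BMP genes (-0.21 and 0.24). In TAA+C7.5 against TAA they included cell cycle genes (-0.38 over all members and 0.43 as a mean over cells). Of 1585 values of named genes 68 changed sign, 23 of them from at least 2-fold. In TAA against Control without leukocyte-bearing members these were Ccl5 at -0.23, Cd5l at -1.37, Il1b at -1.15, Ms4a4c at -0.21 and Ctsc at -0.11. With 0 vascular UMIs as well they were Ccl5 at -1.22, Cd5l at -1.42, C1qc at -0.94, Il1b at -1.18, Nlrp3 at -0.23, Ms4a4c at -0.23 and Ctsc at -1.08. With a sinusoidal sum of at least 5, Cd5l stood at -0.53 and Clu at 1.02. Without limits, Spp1 stood at 0.27, Clu at 0.68, Mcfd2 at 0.11 and Gata4 at 0.24. In TAA+C7.5 against TAA, Spp1 stood at -0.43 and Ccdc152 at 0.052 without limits, Il1b at 1.54 without leukocyte-bearing members and Esm1 at 0.11 as a mean over cells, and in TAA+C7.5 against Control Ccl4 stood at -0.20 without leukocyte-bearing members. The cause was not tested.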
